A study of Mus musculus with 4 samples.

Results

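Insulin and the insulin-like growth factors (IGFs) are hormones that bind a pair of related receptor tyrosine kinases, and 10 mouse genes of this system, chosen by symbol, are described here across 4 libraries of a podocyte line. They are Igf1, Igf1r, Insr, Irs1 and the binding protein genes Igfbp2 to Igfbp7, out of 56393 genes in the count table. Each symbol matched 1 Ensembl gene, all 10 had a count above 0 in at least 1 library, and 7 passed a count minimum of 50 units, averaged over the libraries. Igfbp3, Igfbp4 and Igfbp6 did not. Of the 56393 genes, 14187 passed that minimum.

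Ligand binding to the IGF-1 receptor or the insulin receptor leads to phosphorylation of the docking proteins IRS1 and IRS2, which recruit PI3-kinase and so activate AKT, mTOR and the restraint of FOXO factors. The IGF binding proteins are secreted and hold IGFs outside the cell, prolonging their life or keeping them from the receptor, and several also act on cells without IGF. Podocytes, which cover the capillaries of the kidney glomerulus, are insulin-responsive, and mice that lack the insulin receptor in podocytes develop albuminuria.

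RNA was sequenced from the conditionally immortalised mouse podocyte line MPC. All groups grew in 10% serum, first at 33 °C in the presence of interferon-gamma (20 U/ml), and were then kept for 7 days at 37 °C without interferon-gamma to differentiate. The groups were sh-JAML/HG (hairpin against Jaml, D-glucose at a final 40 mmol/L, 24 h per the design text), sh-JAML (the same hairpin, no added glucose), sh-NC/HG (control hairpin with the same glucose) and sh-NC (control hairpin, no added glucose). Each group had 1 library, so no group has replicates. The design text speaks of 4 glucose-treated and 4 untreated samples, while 4 libraries in all were analysed here, and the labels do not say whether a library pools several cultures. The labels give no osmotic control, no number of hairpins or clones and no age or sex of the source mouse. The columns of the control libraries name no hairpin and were matched to sh-NC/HG and sh-NC by their names (glucose or control, without Jaml).

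The deposited counts summed to 79330461 to 94341975 per library. Jaml, the targeted gene, had a count of 0 in all 4 libraries, which allows up to 0.129 to 0.151 CPM (the usual depth-scaled count, here with TMM scaling) at 3 sequenced fragments per library, so the hairpin's effect on its target could not be checked. The sh-NC/HG library stood farthest from the other 3, with 974 genes at least 2-fold from their mean, against 332 to 370 for the other libraries. Podocyte markers were uneven: Synpo stood at 172 to 246 CPM and Nes at 394 to 620 CPM, while Wt1 was at 0.632 to 1.17 CPM and Nphs1 at 0.193 to 0.440 CPM. The tubule markers Cdh16, Lrp2 and Pax8 stood at 173 to 737 CPM. Of the other tubule markers listed, Cubn stood at 1.90 to 2.87 CPM, and Slc34a1 and Umod were at 0 in all libraries. Slc12a1 had at most 14 units and Aqp2 at most 8. The label of the line as podocytes is therefore borne out by some of its markers and not by others. The red cell markers Hbb-bs and Hba-a1 split by glucose. They summed to 0.201 CPM in sh-JAML/HG, 25.2 in sh-JAML, 0.332 in sh-NC/HG and 22.9 in sh-NC. The source of that split was not tested, and the glucose comparisons below share it. Low counts piled up at multiples of 4, so 4 units were taken as 1 sequenced fragment. No source used here gives the origin of that step, and if each unit were a separate read, every counting interval below would be narrower and the floor lower. The floor used below is 3 fragments, or 12 units.

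Per kilobase of exon, the scale on which genes can be compared, Igfbp7 was the most abundant of the 10 genes by a wide margin. Its mean over the libraries was 302 CPM per kilobase, at or above 99.2% of the 14175 genes with an annotated length. Igf1r followed at 15.2, Insr at 7.71, Igfbp2 at 7.39 and Irs1 at 5.14 CPM per kilobase. Those means lay at or above 71.6%, 53.5%, 52.3% and 42.6% of genes in that order. The remaining genes were near the bottom, with Igf1 at 0.219, Igfbp6 at 0.196, Igfbp5 at 0.0994, Igfbp3 at 0.0217 and Igfbp4 at 0.0138 CPM per kilobase. Across the 4 libraries the range of Igfbp2 (3.94 to 15.2 CPM per kilobase) overlapped those of Igf1r (13.5 to 16.8), Insr (6.53 to 8.46) and Irs1 (3.55 to 6.11), and its order relative to Insr and Irs1 depends on the library. Igf1r and Insr did not overlap, and neither did Insr and Irs1. The line thus carried transcripts for both receptors and for the docking protein, little for the ligand, and 1 dominant binding protein gene.

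**Figure D1:**
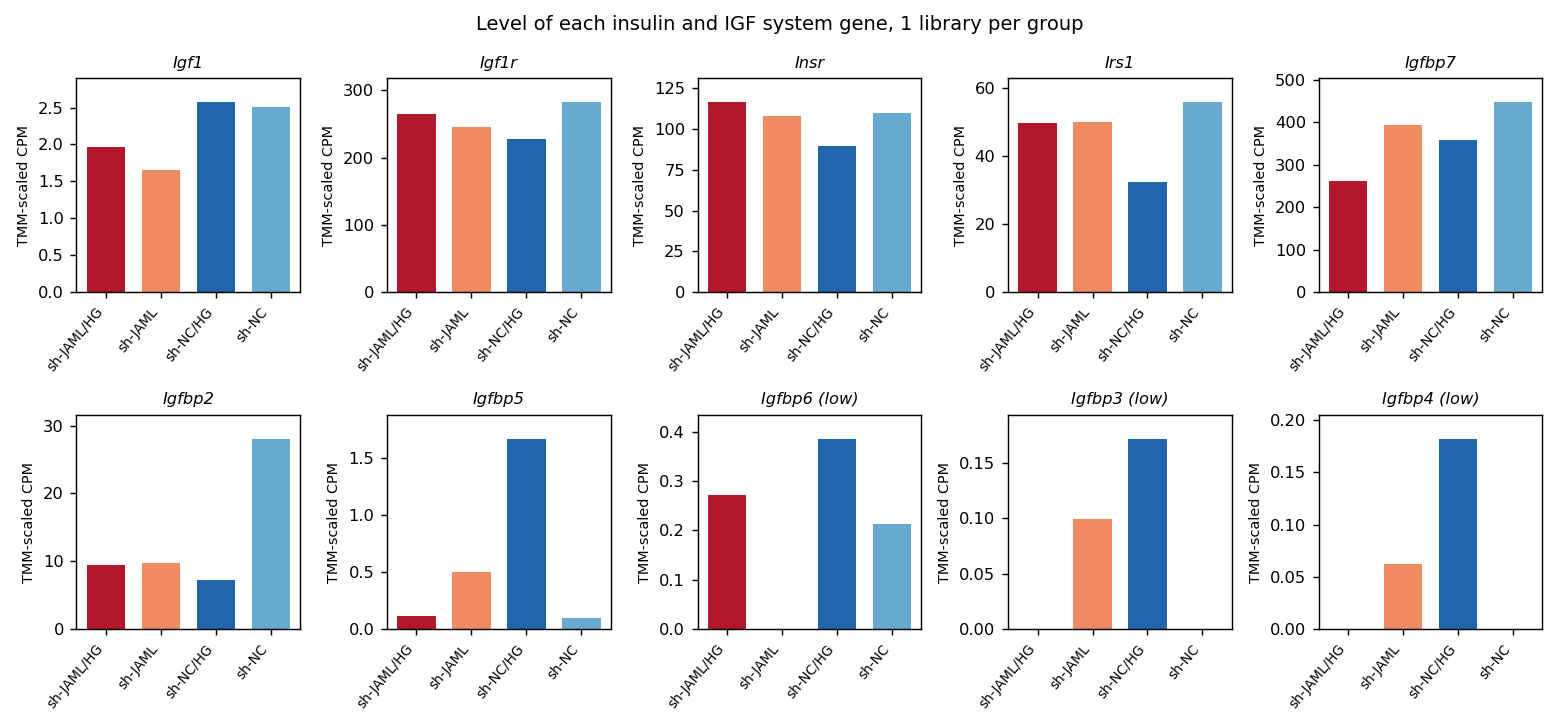
TMM-scaled CPM of the 10 genes (vertical axes, each starting at 0 with its own range) in the 4 libraries (horizontal axes), 1 bar per library and no error bar because each group has 1 library. Igfbp2 was highest in sh-NC (28.0 CPM), Igfbp5 in sh-NC/HG (1.67 CPM), and "low" marks the 3 genes under the count minimum.

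The promoters of 4 genes are shown because their transcripts are either the most abundant (Igfbp7) or differ most between libraries among the well counted members (Igfbp2, Irs1), and because Igfbp5 lies beside Igfbp2. Each sequence is the 250 bases before the transcription start, 5′ to 3′ on the gene's strand, from RefSeq on GRCm38.p6. The windows are chr5:77408046-77408295 (minus strand), chr1:72824230-72824479 (plus), chr1:82291440-82291689 (minus) and chr1:72874866-72875115 (minus). Capitals mark matches on either strand to the GC box GGGCGG, the E-box CACGTG, the TATA box TATAAA, the AP-1 site TGANTCA, the insulin response core CAAAACA or the CCAAT box.
Igfbp7: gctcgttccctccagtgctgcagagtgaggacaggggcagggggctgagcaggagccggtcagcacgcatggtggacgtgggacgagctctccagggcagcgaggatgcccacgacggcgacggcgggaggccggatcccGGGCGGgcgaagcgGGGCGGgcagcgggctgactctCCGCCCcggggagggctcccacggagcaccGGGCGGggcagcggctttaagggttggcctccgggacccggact
Igfbp2: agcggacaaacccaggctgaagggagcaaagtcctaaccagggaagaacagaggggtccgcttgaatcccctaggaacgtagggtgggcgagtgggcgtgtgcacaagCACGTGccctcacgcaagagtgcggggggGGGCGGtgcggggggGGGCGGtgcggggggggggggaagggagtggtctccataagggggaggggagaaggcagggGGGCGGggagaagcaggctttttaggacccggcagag
Irs1: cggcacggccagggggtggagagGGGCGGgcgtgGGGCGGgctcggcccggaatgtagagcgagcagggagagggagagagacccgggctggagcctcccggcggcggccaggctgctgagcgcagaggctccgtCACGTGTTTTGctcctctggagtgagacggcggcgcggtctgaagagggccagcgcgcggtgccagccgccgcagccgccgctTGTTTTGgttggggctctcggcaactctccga
Igfbp5: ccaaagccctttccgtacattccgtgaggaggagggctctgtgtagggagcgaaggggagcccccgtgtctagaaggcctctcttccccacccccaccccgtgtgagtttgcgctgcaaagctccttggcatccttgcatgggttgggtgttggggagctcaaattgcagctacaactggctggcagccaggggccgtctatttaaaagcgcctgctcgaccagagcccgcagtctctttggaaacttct

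Igfbp7 held 4 matches to the GC box, the motif of SP1-type factors, Igfbp2 held 3 and Irs1 held 2. A GC box was present in 4 of the 9 members with a RefSeq window (Igf1r was the other), against 32.7% of all 32851 promoter windows of this length. The E-box, read by basic helix-loop-helix factors such as USF, was present in Igfbp2 and Irs1, against 6.02% of all windows. Irs1 also had 2 matches to the insulin response core, 1 of which overlaps its E-box, against 5.56% of windows with any match. This core is known from the human IGFBP1 promoter, where FOXO1 binds it. The Igfbp5 window held no match to any of the 6 motifs. Igfbp2 and Igf1r, which differ in level and in how they vary, share the GC box and a high GC content (67.2% and 77.6%, against a median of 52.4% over all windows). These matches describe the sequence and are not evidence of binding.

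Igf1, the ligand gene (ENSMUSG00000020053, chromosome 10, 87858265 to 87937042), was sparse in every library. It had 1.96 CPM in sh-JAML/HG, 1.66 in sh-JAML, 2.57 in sh-NC/HG and 2.50 in sh-NC. Both Jaml-hairpin libraries were below both control-hairpin libraries. The ratio of sh-JAML to sh-NC was 0.662 (exact 95% counting interval 0.408 to 1.04) and that of sh-JAML/HG to sh-NC/HG 0.763 (0.508 to 1.16), so each difference was within counting error. Igf2, the second IGF ligand gene, had 0 units in sh-JAML/HG, 5 in sh-JAML, 45 in sh-NC/HG and 0 in sh-NC, and 64.5% of its exon bases are shared with annotated neighbours, among them Igf2os. The insulin genes Ins1 and Ins2 had no count in any library.

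Both receptor genes were well counted and varied little. Igf1r, which encodes the IGF-1 receptor (ENSMUSG00000005533, chromosome 7, 67952827 to 68233668), had 265 CPM in sh-JAML/HG, 245 in sh-JAML, 227 in sh-NC/HG and 282 in sh-NC. Insr, which encodes the insulin receptor (ENSMUSG00000005534, chromosome 8, 3122061 to 3279617), had 116 CPM in sh-JAML/HG, 108 in sh-JAML, 89.8 in sh-NC/HG and 110 in sh-NC. For both genes the sh-NC/HG library was the lowest of the 4.

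High glucose was accompanied by opposite small differences under the 2 hairpins. With the control hairpin Igf1r was 1.24-fold lower in sh-NC/HG relative to sh-NC (counting interval 1.20 to 1.29) and Insr 1.22-fold lower (1.15 to 1.30). With the Jaml hairpin Igf1r was 1.08-fold higher in sh-JAML/HG relative to sh-JAML (1.04 to 1.12) and Insr 1.08-fold higher (1.01 to 1.14). The glucose log2 ratio in sh-JAML cells minus that in sh-NC cells was 0.42 for Igf1r and 0.39 for Insr. Of all genes, 33.2% and 35.8% had a difference at least that large. Igf2r, the IGF2-clearing receptor gene that carries no kinase, had the same order of libraries as Igf1r, with 306 CPM in sh-JAML/HG, 296 in sh-JAML, 266 in sh-NC/HG and 322 in sh-NC. Igf1r exceeded Insr per kilobase in every library, by 1.86-fold in sh-JAML/HG, 1.86-fold in sh-JAML, 2.07-fold in sh-NC/HG and 2.11-fold in sh-NC.

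Irs1, the docking protein gene (ENSMUSG00000055980, chromosome 1, 82233101 to 82291416), had 49.7 CPM in sh-JAML/HG, 49.9 in sh-JAML, 32.5 in sh-NC/HG and 55.9 in sh-NC. Among the 4 values only that of sh-NC/HG stood apart, at -0.67 on the log2 scale against the mean of the other libraries. Of all genes, 13.7% were at least as far from that mean in sh-NC/HG. Irs1 was 1.72-fold lower in sh-NC/HG relative to sh-NC (1.57 to 1.89), and its ratio of sh-JAML/HG to sh-JAML was 0.996 (0.913 to 1.09). Under high glucose it was 1.53-fold higher in sh-JAML/HG relative to sh-NC/HG (1.39 to 1.68). Without the sh-NC/HG library the remaining pairs were within 1.12-fold. Of its exon bases 30.9% are shared with Gm9747 on the other strand, which had 0 units in all libraries. Irs2, the other main docking protein gene, had 166 CPM in sh-JAML/HG, 144 in sh-JAML, 119 in sh-NC/HG and 168 in sh-NC. Irs2 was 1.41-fold lower in sh-NC/HG relative to sh-NC (1.34 to 1.49) and 1.15-fold higher in sh-JAML/HG relative to sh-JAML (1.09 to 1.21). Per kilobase Irs2 exceeded Irs1 by 4.17-fold to 5.29-fold over the libraries.

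**Figure D2:**
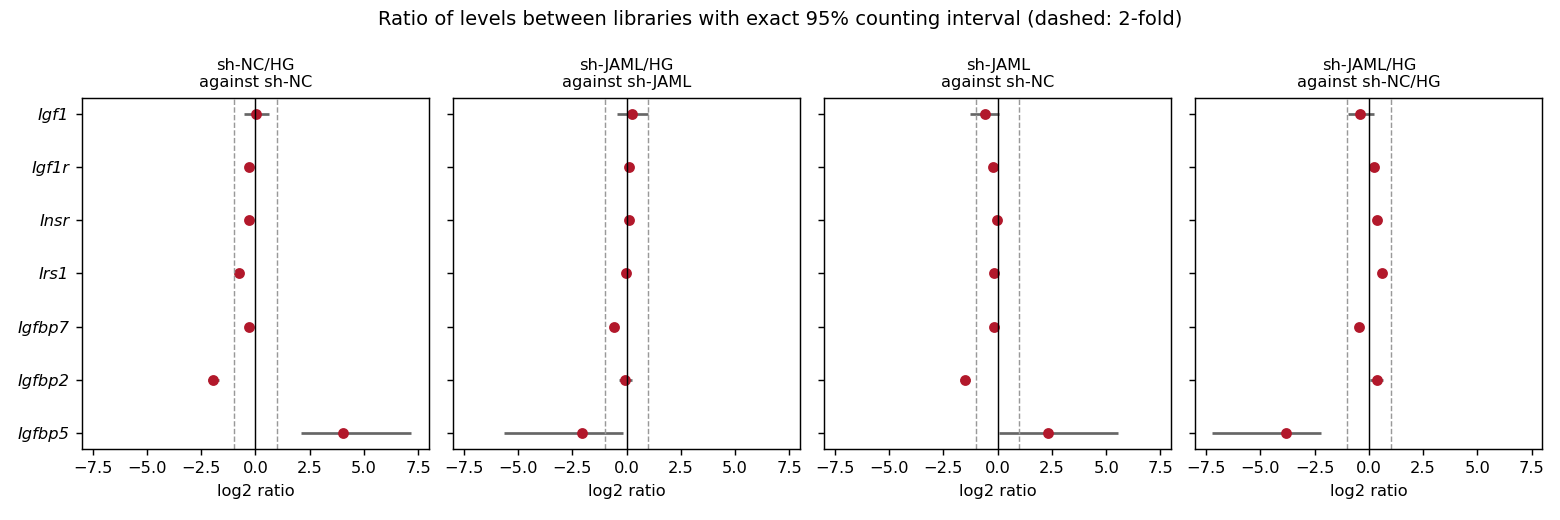
Log2 ratio of TMM-scaled levels (horizontal axes) for the 7 members past the count minimum in 4 pairs of libraries, with points for the ratio and lines for the exact 95% counting interval, which covers counting error only and not variation between cultures. Igfbp2 lay beyond 2-fold (dashed lines) in both pairs set against sh-NC, and Igfbp5 beyond it in all 4 pairs with wide intervals.

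Igfbp7 encodes a secreted binding protein with low affinity for IGFs that is deposited in matrix and basement membranes, and it is proposed as a urinary marker of kidney stress. It lies on chromosome 5 from 77349240 to 77408041 (ENSMUSG00000036256), sharing 7.03% of its exon bases with Polr2b. Its level was 261 CPM in sh-JAML/HG, 392 in sh-JAML, 359 in sh-NC/HG and 447 in sh-NC. The library with both the Jaml hairpin and high glucose was the lowest and the library with neither was the highest.

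Igfbp7 was lower with glucose under both hairpins. Its ratio of sh-JAML/HG to sh-JAML was 0.666 (0.643 to 0.689), and sh-NC/HG was 1.24-fold below sh-NC (1.21 to 1.28). With the Jaml hairpin it was 1.14-fold lower in sh-JAML relative to sh-NC (1.11 to 1.17) and 1.37-fold lower in sh-JAML/HG relative to sh-NC/HG (1.33 to 1.42). In the additive model over all 4 libraries, with terms for hairpin and glucose, the glucose term of Igfbp7 was -0.45 on the log2 scale, lower in 2 of 2 pairs, and did not pass the test (edgeR's quasi-likelihood test, unadjusted p = 0.022, Benjamini-Hochberg adjusted p = 0.927). Its hairpin term was -0.32, lower in 2 of 2 pairs (edgeR unadjusted p = 0.0587, adjusted p = 0.933). Igfbp7 made up 97.6% of the summed level per kilobase of the 6 binding protein genes in sh-JAML/HG, 98.4% in sh-JAML, 98.5% in sh-NC/HG and 96.0% in sh-NC.

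Igfbp2, whose protein binds IGF1 and IGF2 and is a marker of insulin sensitivity in blood, differed most among the well counted members. It lies on chromosome 1 from 72824503 to 72852474 (ENSMUSG00000039323). Its level was 9.42 CPM in sh-JAML/HG, 9.81 in sh-JAML, 7.29 in sh-NC/HG and 28.0 in sh-NC. The sh-NC library was thus high and the other 3 lay close together. The ratio of Igfbp2 was 0.260 for sh-NC/HG to sh-NC (0.217 to 0.309), which is 3.85-fold lower, and the gene was 2.86-fold lower in sh-JAML relative to sh-NC (2.42 to 3.38). In sh-JAML/HG it was 2.98-fold lower relative to sh-NC (2.53 to 3.52). These 3 ratios share the sh-NC library. In the pairs without it, the ratio of sh-JAML/HG to sh-JAML was 0.961 (0.783 to 1.17) and that of sh-JAML/HG to sh-NC/HG 1.29 (1.05 to 1.59). In its distance from the mean of the other 3 libraries, sh-NC differed by 1.68 on the log2 scale for Igfbp2, and 0.86% of all genes were at least as far from that mean in sh-NC.

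Genes with the profile of Igfbp2 over the 4 libraries were sought among 10810 genes averaging 500 units of count or more. By root mean square difference of mean-centred log2 levels, the nearest were Efna1, the gene of the membrane-bound ligand ephrin-A1 (0.10), Ldah, a lipid droplet hydrolase gene (0.16), and Shank2, a scaffold protein gene (0.19). Efna1 had 30.5 CPM in sh-JAML/HG, 27.6 in sh-JAML, 23.3 in sh-NC/HG and 77.5 in sh-NC. Each of these genes was highest in sh-NC, and with 4 libraries such likeness is a description only.

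**Figure D3:**
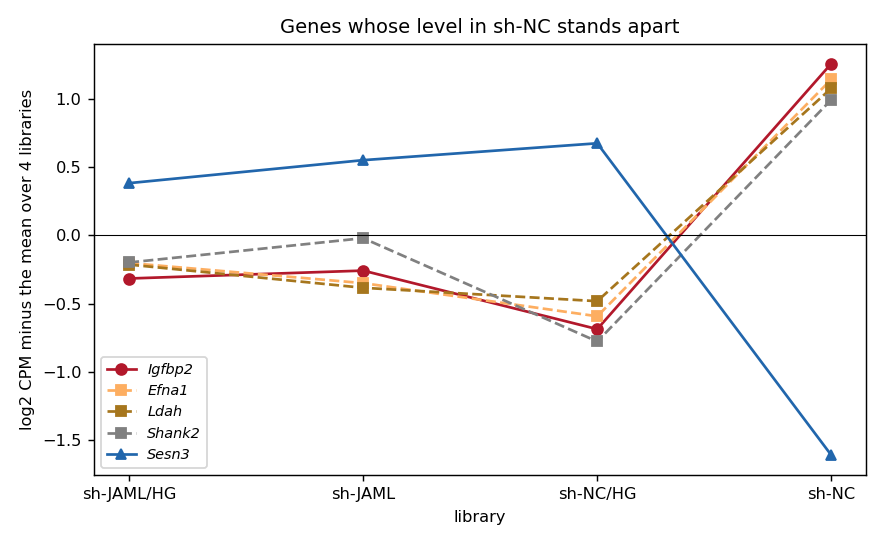
Log2 CPM minus its mean over the 4 libraries (vertical axis) for Igfbp2, the 3 genes with the most similar profile and Sesn3, by library (horizontal axis), 1 point per library with lines joining them to guide the eye. Sesn3 was lowest in sh-NC (41.7 CPM) where Igfbp2, Efna1, Ldah and Shank2 were highest.

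Igfbp5, whose protein binds IGFs and matrix, lies on chromosome 1 from 72857932 to 72874884 (ENSMUSG00000026185), 5.46 kb from Igfbp2 on the opposite strand. It had 10 units of count in sh-JAML/HG, 40 in sh-JAML, 156 in sh-NC/HG and 8 in sh-NC, or 0.118, 0.498, 1.67 and 0.101 CPM in that order. The sh-JAML/HG and sh-NC values are under the floor of 12 units. Igfbp5 passed the count minimum only through sh-NC/HG, so it had to differ there, and its share in the counts below is no support for a shift of the family.

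Igfbp5 was 16.6-fold higher in sh-NC/HG relative to sh-NC (4.30 to 142) and 4.22-fold lower in sh-JAML/HG relative to sh-JAML (1.12 to 49.5). It was 4.96-fold higher in sh-JAML relative to sh-NC (1.06 to 46.5) and 14.1-fold lower in sh-JAML/HG relative to sh-NC/HG (4.58 to 151). The bound of 1.12 for sh-JAML/HG relative to sh-JAML rests on 2.5 fragments rounded down to a whole number. That ratio is therefore not read as a difference. The nearest profiles were those of Lifr, the leukaemia inhibitory factor receptor gene (0.54), the predicted gene Gm38431 (0.66) and Rlf, a zinc finger gene (0.68). These are not close matches, as the nearest profiles to Igfbp2 lay at 0.10 to 0.19. With Igfbp5 under the floor in sh-JAML/HG and sh-NC, the likeness is a description only. Lifr had 1.61 CPM in sh-JAML/HG, 4.02 in sh-JAML, 31.4 in sh-NC/HG and 2.26 in sh-NC.

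Among the stromal and vascular markers past the count minimum, Dcn, Flt1 and Des were highest in sh-NC/HG. The others, Col1a1, Acta2, Pdgfrb and Gata3, were highest in sh-NC. Dcn, a fibroblast proteoglycan gene, had 0.579 CPM in sh-JAML/HG, 0.797 in sh-JAML, 6.44 in sh-NC/HG and 0.427 in sh-NC. The 5 fibroblast markers summed to 11.7 CPM in sh-JAML/HG, 11.9 in sh-JAML, 17.3 in sh-NC/HG and 17.1 in sh-NC, and 2 of the 5 passed the count minimum, Col1a1 and Dcn. Col1a1, a collagen gene, had 10.8 CPM in sh-JAML/HG, 10.9 in sh-JAML, 10.0 in sh-NC/HG and 16.4 in sh-NC, so that it was lowest where Dcn was highest. The 6 endothelial markers summed to 1.05, 1.59, 4.26 and 1.17 CPM in the same order, with Flt1 alone past the minimum. Flt1, a VEGF receptor gene, had 0.993 CPM in sh-JAML/HG, 1.28 in sh-JAML, 3.78 in sh-NC/HG and 1.02 in sh-NC. The 6 mesangial and pericyte markers, 4 of them past the minimum, summed to 871 CPM in sh-JAML/HG, 864 in sh-JAML, 815 in sh-NC/HG and 1220 in sh-NC. Most of that sum was Acta2, the smooth muscle actin gene, at 742 CPM in sh-JAML/HG, 729 in sh-JAML, 677 in sh-NC/HG and 1069 in sh-NC. Des, another mesangial marker, had 0.201 CPM in sh-JAML/HG, 0.112 in sh-JAML, 2.31 in sh-NC/HG and 0.453 in sh-NC. Dcn and Des held 601 and 216 units in sh-NC/HG, against 34 to 64 and 9 to 36 elsewhere. Their place past the count minimum thus rests largely on that library. The markers Lum, Kdr, Itga8 and Ren1 were at 0 in all libraries. The part of such cells in the Igfbp5 value was not tested, and in bulk RNA fewer cells with a transcript and less of it per cell cannot be told apart.

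The other binding protein genes were near the detection limit, with Igfbp6 above the floor of 12 units in 3 of the 4 libraries. Igfbp6, for an IGF2-preferring protein (ENSMUSG00000023046, chromosome 15, 102144362 to 102149511), had 23 units in sh-JAML/HG, 0 in sh-JAML, 36 in sh-NC/HG and 17 in sh-NC. With the 0 of sh-JAML set to the floor, its sh-JAML/HG value was 1.82-fold higher. The lower counting bound of 1.12 for sh-JAML/HG to sh-JAML rests on 5.75 fragments rounded up to a whole number, so it is not read as a difference. The intervals of its other 3 ratios include 1. Igfbp3, whose protein is the main IGF carrier of the blood (ENSMUSG00000020427, chromosome 11, 7206086 to 7213923), had 0, 8, 16 and 0 units in that order. Igfbp4, whose protein inhibits IGF action until it is cleaved (ENSMUSG00000017493, chromosome 11, 99041244 to 99054392), had 0, 5, 17 and 0 units. Igfbp3 and Igfbp4 exceeded the 12-unit floor in sh-NC/HG alone, which was also the deepest library, and the counting intervals of all their ratios include 1. Igfbp1, the insulin-repressed binding protein gene of liver, had no count in any library.

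Counted over the 7 members past the minimum, 2 were at least 2-fold apart in sh-NC/HG versus sh-NC (Igfbp5 higher, Igfbp2 lower), where 7.92% of all 14187 genes were (4.65% higher, 3.27% lower). In sh-JAML/HG versus sh-JAML it was 1 (Igfbp5, lower), against 2.88% of all genes (1.31% higher, 1.56% lower). In sh-JAML versus sh-NC it was 2 (Igfbp5 higher, Igfbp2 lower), against 2.71% (1.31% higher, 1.4% lower). In sh-JAML/HG versus sh-NC/HG it was 1 (Igfbp5, lower), against 7.59% (2.81% higher, 4.78% lower). With a limit of 1.5-fold the counts were 3, 2, 3 and 2 of 7 in the same order of pairs, against 19.0%, 7.75%, 8.02% and 18.2% of all genes. Without Igfbp5, Igfbp2 is the only member past 2-fold, and only in the pairs set against sh-NC. The median log2 ratio of the 7 was -0.31 in sh-NC/HG versus sh-NC and -0.19 in sh-JAML versus sh-NC, while the medians over all genes were 0.0016 in each. In these pairs 5 and 6 of 7 were below 0, against 7065 and 7040 of all 14187 genes, and both pairs share the sh-NC library. The median of the 7 was -0.0065 in sh-JAML/HG versus sh-JAML and 0.22 in sh-JAML/HG versus sh-NC/HG. With 1 library per group no pair carries a test.

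In the additive model, which leaves 1 residual degree of freedom, edgeR called 0 of the 7 members for glucose (background 0.00705% of genes) and 0 for the hairpin (background 0.0%). At an unadjusted p under 0.05 there was 1 member for glucose, Igfbp7, and 0 for the hairpin, against 2.8% and 2.82% of all genes. DESeq2 called 0 members for either term, against 0.374% of all genes for glucose and 0.338% for the hairpin, and limma-voom called 0 members and 0.0% of genes for either.

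The rest of the insulin and IGF pathway was described by a list of 60 further genes, of which 46 passed the count minimum. In sh-NC/HG versus sh-NC, 1 was at least 2-fold higher (Sesn3) and 1 lower (Adam12), in sh-JAML versus sh-NC 1 was higher (Sesn3), in sh-JAML/HG versus sh-NC/HG 1 was higher (Pdk4), and between sh-JAML/HG and sh-JAML there was 0. These counts of 0 to 2 of 46 stand beside the background shares of 2.71% to 7.92% given above. The list's median log2 ratios were 0.06, -0.027, -0.062 and -0.014 in the same order of pairs. In the additive model edgeR called 0 of the 46 for either term, and at an unadjusted p under 0.05 there was 1 for each, Ptprf, a phosphatase gene named after its values were seen. DESeq2 and limma-voom also called 0.

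Sesn3 encodes sestrin 3, a FOXO target that restrains mTORC1, and had 166 CPM in sh-JAML/HG, 186 in sh-JAML, 203 in sh-NC/HG and 41.7 in sh-NC. As with Igfbp2, sh-NC was the library that stood apart, here as the lowest. Sesn3 was 4.87-fold higher in sh-NC/HG relative to sh-NC (4.52 to 5.25) and 4.47-fold higher in sh-JAML relative to sh-NC (4.14 to 4.82), and these ratios share sh-NC. Its ratio of sh-JAML/HG to sh-JAML was 0.890 (0.849 to 0.932). Adam12, a metalloprotease gene whose product can cleave binding proteins, had 1.22 CPM in sh-JAML/HG, 1.81 in sh-JAML, 1.41 in sh-NC/HG and 3.32 in sh-NC, and was 2.35-fold lower in sh-NC/HG relative to sh-NC (1.52 to 3.68). Pdk4, a FOXO target that limits glucose oxidation, had 2.41 CPM in sh-JAML/HG, 2.77 in sh-JAML, 1.06 in sh-NC/HG and 2.12 in sh-NC. It was 2.27-fold higher in sh-JAML/HG relative to sh-NC/HG (1.37 to 3.79). The ratio of sh-NC/HG to sh-NC for Pdk4 was 0.499 (0.296 to 0.852), which is left out of the count above because its log2 ratio with the prior count was -0.99.

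At a limit of 1.5-fold, 3 of the 46 genes were higher and 4 lower in sh-NC/HG versus sh-NC, and 1 and 1 between sh-JAML/HG and sh-JAML. It was 2 and 1 in sh-JAML versus sh-NC, and 3 and 0 in sh-JAML/HG versus sh-NC/HG. The shares of all genes past that limit either way were 19.0%, 7.75%, 8.02% and 18.2% in the same order. Akt2, a kinase gene of insulin signalling, had 64.3 CPM in sh-JAML/HG, 114 in sh-JAML, 67.4 in sh-NC/HG and 60.4 in sh-NC, so that sh-JAML stood above the rest. Akt2 was 1.78-fold lower in sh-JAML/HG relative to sh-JAML (1.67 to 1.91). Gsk3b, for a kinase that AKT inhibits, was 1.63-fold higher in sh-JAML/HG relative to sh-JAML (1.55 to 1.71), and both genes were named after their values were seen. The highest levels per kilobase among the 60 genes were those of Cited2, a transcriptional co-regulator gene (95.6 CPM per kilobase on average), Akt1, the kinase gene (75.0), and Stc2, whose product inhibits the binding protein protease PAPP-A (69.3). Akt1 had 299 CPM in sh-JAML/HG, 298 in sh-JAML, 328 in sh-NC/HG and 305 in sh-NC. Stc2 had 359 CPM in sh-JAML/HG, 418 in sh-JAML, 230 in sh-NC/HG and 427 in sh-NC, and was 1.86-fold lower in sh-NC/HG relative to sh-NC (1.80 to 1.92). Cited2 had 207 CPM in sh-JAML/HG, 238 in sh-JAML, 231 in sh-NC/HG and 264 in sh-NC.

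**Figure D4:**
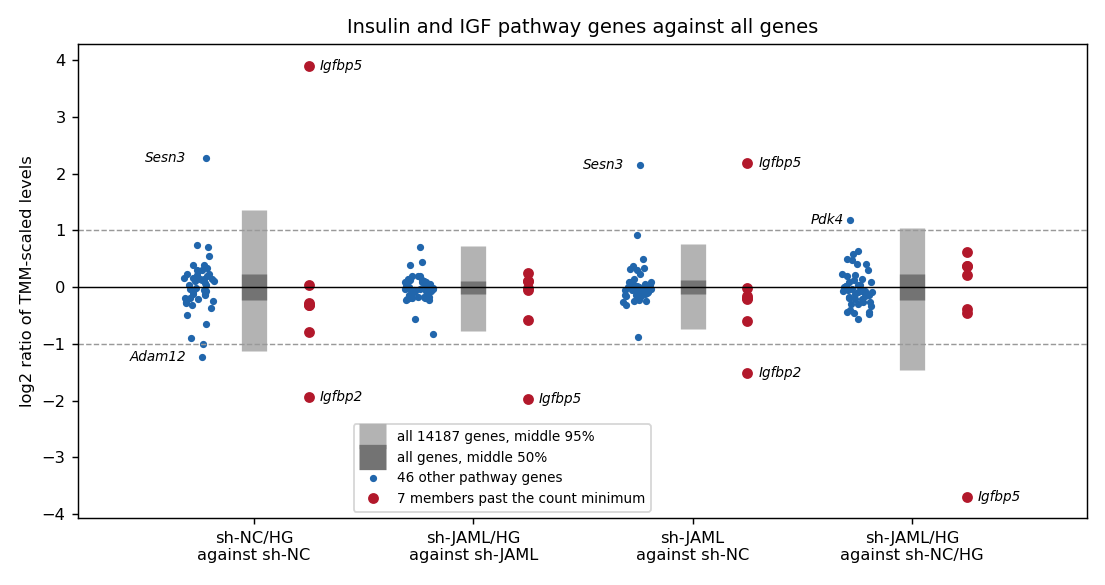
Log2 ratio of TMM-scaled levels (vertical axis) in 4 pairs of libraries (horizontal axis) for the 7 members past the count minimum (red) and 46 other pathway genes (blue), beside bars for the middle 50% and 95% of all 14187 genes; genes at least 2-fold apart are named. Sesn3 lies above 2 in both pairs set against sh-NC, and Igfbp2 below -1 in the same pairs.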

How the data were processed

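RNA-seq counts of 4 libraries, prepared with a TruSeq RNA kit per the labels' protocols, were analysed. The submitters' processing notes name CASAVA 1.8, TopHat2 2.0.6 and build mm10. The deposited values are estimated counts by Ensembl gene, unscaled between libraries. Which tool counted the reads, whether it used strand and with which annotation is not given in the sources used here. Low values piled up at multiples of 4 (values of 4, 8 and 12 were 1.51 to 2.10 times as frequent as adjacent even numbers), so 4 units were taken as 1 fragment in intervals and floors.

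Symbols, positions and exon lengths came from GENCODE M21 (GRCm38, the assembly of mm10), which named 55394 genes and left 999 unnamed. A blank line was left out. Counts were scaled with TMM (edgeR 4.0.16, R 4.3.3), with a prior count of 1 in log2 ratios and a count minimum of 50 (mean over the libraries). Ratios in the text are of unsmoothed scaled counts with exact Clopper-Pearson 95% intervals, conditional on the sum of both counts, while counts of genes at least 2-fold apart use the log2 ratios with the prior count. Intervals and floors cover counting error only. The additive model (hairpin and glucose, 1 residual degree of freedom) was fitted over all 14187 genes with edgeR's quasi-likelihood functions. Benjamini-Hochberg adjustment was used at 0.05. The error of the model is the disagreement between hairpins or glucose levels. A run on simulated counts held glucose changes but no such disagreement beyond random spread, so it does not show how the model performs here. DESeq2 1.42.0, limma 3.58.1, other scalings, no count minimum, a 1.5-fold limit and a prior count of 5 were tried. Other values used Python 3.11.15, numpy 2.4.6, pandas 2.3.3, scipy 1.17.1 and matplotlib 3.10.9. Promoter sequences came from RefSeq (GRCm38.p6), the window nearest the annotated start, and 9 of the 10 members matched.

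The members and lists were chosen with earlier results of these data known. Named genes are the 10 members, Igfbp1, Igf2, Igf2r and Irs2, pathway genes at least 2-fold apart in any pair, the 3 other pathway genes with the highest level per kilobase, and, for the 2 members with the largest range, the 3 genes with the nearest profile. That range was taken over members past the count minimum, a limit added after the values were seen.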

Additional observations from a re-analysis of the deposited data

Results flagged for a closer look

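Igfbp5, Igf1r and Insr were picked out because their glucose ratios lay on opposite sides of 1 in the Jaml-hairpin and control-hairpin libraries. The counting intervals used for this left out 1 in both. For Igfbp5 in sh-JAML/HG versus sh-JAML, this rests on 2.5 fragments rounded down to a whole number. That ratio is not read as a difference. The glucose log2 ratio in sh-JAML cells minus that in sh-NC cells was -5.88 for Igfbp5, where the sh-JAML/HG and sh-NC libraries held 10 and 8 units of count. Igfbp5 passed the count minimum only through sh-NC/HG, so it had to differ there and its flag is no support. The difference was 0.42 for Igf1r and 0.39 for Insr, and 33.2% and 35.8% of all genes had one at least as large. The differences were not tested, since each of the 4 groups has 1 library.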

How the results depend on the processing

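Over 28 ratios (7 members in 4 pairs), DESeq2 size factors shifted none by more than 0.0026 on the log2 scale and total-count scaling none by more than 0.036, and no ratio past 2-fold changed sign. A prior count of 5 shifted ratios by up to 0.47. Total-count scaling changed the sign of 1 ratio, that of Insr in sh-JAML versus sh-NC, which is -0.02 in the main values. Without the count minimum, 4 of the 10 members were at least 2-fold apart in sh-NC/HG versus sh-NC and 4 in sh-JAML/HG versus sh-JAML. It was 5 in sh-JAML versus sh-NC and 3 in sh-JAML/HG versus sh-NC/HG. The sparse Igfbp3, Igfbp4 and Igfbp6, with 0 to 36 units per library, then enter. No share over all genes was taken at that setting, so these counts are no result about the members. At 1.5-fold, 2 members were apart in sh-JAML/HG versus sh-JAML (7.75% of all genes) and 2 in sh-JAML/HG versus sh-NC/HG (18.2%). Over all genes the additive model gave 1 call for glucose and 0 for the hairpin with edgeR, 53 and 48 with DESeq2, 0 and 0 with limma-voom, and 0 and 0 with edgeR without the count minimum. At an unadjusted p under 0.05, edgeR gave 397 and 400 genes. The cause of these differences between tools was not tested. No paired analysis was possible because the labels carry no replicate numbers and each group has 1 library, and leaving a library out leaves no residual degree of freedom. Depth limits Igfbp3, Igfbp4, Igfbp5 and Igfbp6, whose libraries hold at most 39 fragments each.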

Other observations

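Of the 6 genes for binding protein proteases and their inhibitors, Stc2, Htra1 and Adam12 passed the count minimum. Htra1, a serine protease gene, had 3.27 CPM in sh-JAML/HG, 3.81 in sh-JAML, 4.47 in sh-NC/HG and 2.72 in sh-NC, and was 1.65-fold higher in sh-NC/HG relative to sh-NC (1.17 to 2.32). Pappa, which encodes a protease that cleaves IGFBP4, had 39 units of count in sh-JAML/HG, 40 in sh-JAML, 0 in sh-NC/HG and 46 in sh-NC. Stc1, for a related inhibitor of that protease, had 38, 28, 100 and 12 units in the same order, and Slc2a4, for the insulin-responsive glucose transporter GLUT4, had 13, 24, 93 and 24. Slc2a1, for the basal glucose transporter GLUT1, was well counted at 68.3 CPM in sh-JAML/HG, 72.4 in sh-JAML, 94.8 in sh-NC/HG and 74.7 in sh-NC. Slc2a1 was 1.27-fold higher in sh-NC/HG relative to sh-NC (1.19 to 1.36), and its ratio of sh-JAML/HG to sh-JAML was 0.943 (0.876 to 1.01). These 5 genes were named after their values were seen.

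Neighbours of the sparse binding protein genes were sought only among genes past the count minimum, the members and Igfbp1. That a neighbour was well counted thus follows from the selection, and the distances are a description only. Igfbp4 had at most 0.182 CPM and lies 17.1 kb from Top2a, at 307 to 472 CPM. Igfbp6 had at most 0.386 CPM and lies 8.13 kb from Spryd3, at 65.7 to 81.8 CPM. Igfbp3 lies 3.54 kb from Igfbp1, and both were at or near 0.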
